A study of Mus musculus with 20 samples.

Results

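The genes examined here were 10 markers of the macrophages that live in the heart wall. They were taken by symbol from the deposited gene table, and all 10 were found among its 29339 genes. They fall into 4 roles: the subunits of complement component C1q (C1qa, C1qb and C1qc), the receptors for growth factor and chemokine (Csf1r and Cx3cr1), a surface receptor and a lysosomal protein used to identify macrophages (Adgre1 and Cd68), and the receptors of resident, tissue-clearing macrophages (Cd163, Mrc1 and Lyve1). The set was chosen by the levels of these genes in the libraries of each genotype and library series. Their levels and differences are therefore given as a description, without a test, and tests are given for other genes and for all genes together.

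The study sequenced poly(A) RNA of hearts from C57BL/6 mice killed at 8 weeks of age, with the genotype TECRL-/- (KO) or wild type (WT). Tecrl encodes a reductase-like protein of the endoplasmic reticulum that has been linked to catecholaminergic polymorphic ventricular tachycardia. By their labels the 20 libraries formed 4 groups: 5 of male WT hearts (WT1, WT2 and S7 to S9), 5 of male KO hearts (S10 to S12, TKO5 and TKO6), 3 of female WT hearts (S1 to S3) and 7 of female KO hearts (S4 to S6 and TKO1 to TKO4). The library names run in 2 series, 12 named S and 8 named WT or TKO, and the labels do not say what separates them. Neither the labels nor the methods describe the deleted part of Tecrl. They name no transgene or Cre, and no treatment apart from pentobarbital anaesthesia before killing.

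Cardiac macrophages are few beside myocytes, endothelial cells and fibroblasts, so whole-heart RNA carries their transcripts at modest levels. Many of them settle in the heart before birth and renew themselves there, while others arise from blood monocytes that express Ccr2. Resident cells clear dying cells and cell debris, carry scavenger receptors such as CD163, and depend on signalling through the receptor that Csf1r encodes. In bulk RNA, fewer macrophages and less RNA per macrophage cannot be told apart.

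The promoters of C1qb and C1qc are shown because these neighbouring genes varied together across libraries, and that of Cd163 as a resident macrophage gene whose promoter lacks the searched element. The sequences are RefSeq's on GRCm38.p6, and 6 of the 10 genes had one (C1qb, C1qc, Cd68, Cd163, Mrc1 and Cx3cr1). Capitals mark the letters GAGGAA, the core of the PU.1 element, or their reverse complement. PU.1, encoded by Spi1, is the factor that macrophages need to form.
C1qb, chr4:136886201-136886450, minus strand: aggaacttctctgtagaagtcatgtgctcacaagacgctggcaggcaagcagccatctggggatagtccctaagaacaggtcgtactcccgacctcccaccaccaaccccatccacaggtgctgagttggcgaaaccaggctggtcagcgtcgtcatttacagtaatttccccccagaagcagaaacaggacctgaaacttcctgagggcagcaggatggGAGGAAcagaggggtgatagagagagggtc
C1qc, chr4:136893066-136893164, minus strand: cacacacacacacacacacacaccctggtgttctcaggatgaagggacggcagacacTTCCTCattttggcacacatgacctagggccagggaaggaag
Cd163, chr6:124304401-124304650, plus strand: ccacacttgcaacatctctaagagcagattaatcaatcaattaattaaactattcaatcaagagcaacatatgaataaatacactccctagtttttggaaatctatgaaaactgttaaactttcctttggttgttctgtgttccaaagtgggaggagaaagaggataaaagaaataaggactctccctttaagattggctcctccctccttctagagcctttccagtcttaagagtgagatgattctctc
For C1qc, the bases nearer to the RefSeq start lie within the GENCODE exon and are left out. Counted from the RefSeq start, the marked letters begin at base -30 in C1qb and at base -193 in C1qc, where they stand on the other strand. On either strand of the 250 upstream bases, GAGGAA occurred in 4 of the 6 promoters (C1qb, C1qc, Cd68 and Mrc1) and in 23.1% of all 27025 promoters. TGTGGT, the core of the RUNX element, occurred in 2 of 6 (C1qc and Cx3cr1) and in 14.2% of all promoters. The TATA box letters TATAAA occurred in 0 of 6 and in 13% of all.

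Total counts ranged from 12540002 to 20038593 per library. The targeted gene did not separate the genotypes: Tecrl ranged from 60.3 to 99.3 CPM (counts scaled to a common library total) in the 12 KO libraries and from 51.9 to 122 CPM in the 8 WT libraries, and whether the counted exons lie inside the deletion is not stated. In 6 libraries the sex-linked genes went against the label. S4 to S6, labelled female, had Xist at 0.07 to 0.26 CPM and summed Y-linked genes at 181 to 203 CPM, while S7 to S9, labelled male, had Xist at 252 to 325 CPM and Y-linked genes at 0. Sexes and genotypes here are those of the labels throughout, so KO and WT stand for libraries so labelled. Library S7 also stood apart, with 245 CPM of summed B-cell genes against at most 8.6 CPM elsewhere and 860.3 CPM of adipocyte genes against at most 39.7 CPM elsewhere.

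Per length of transcript, C1qa and C1qb had the highest mean levels of the 10 genes. Mean FPKM (fragments scaled by gene length and library total) over the 20 libraries was 71.4 ± 22 (SD, n = 20) for C1qa and 65.3 ± 19.1 for C1qb. Lyve1 followed at 32.7 ± 18.9 and C1qc at 27.3 ± 8.14. Cd163 had 9.66 ± 2.31, Csf1r 6.91 ± 2.32, Mrc1 5.52 ± 1.34, Cd68 3.88 ± 1.68 and Adgre1 1.74 ± 0.79. Cx3cr1 was nearly absent, with 0.13 ± 0.08 FPKM and 1 to 23 counts per library. Of the 9 steps in this order, 6 were not kept in every library. C1qa exceeded C1qb in 15 of 20 libraries, and Lyve1 exceeded C1qc in 11 of 20. Csf1r exceeded Mrc1 in 17 of 20, C1qb exceeded Lyve1 in 18 of 20, and Mrc1 over Cd68 and Cd68 over Adgre1 held in 19 of 20. C1qc over Cd163, Cd163 over Csf1r and Adgre1 over Cx3cr1 held in every library.

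C1q is the recognition unit that starts the classical complement pathway and also tags dying cells for uptake. Its chains A, B and C come from genes that lie side by side on the minus strand of mouse chromosome 4 (GRCm38), C1qb at chr4:136880129-136886187, C1qc at chr4:136889804-136893065 and C1qa at chr4:136895917-136898803, each with 3 exons in GENCODE. The level of C1qb was 75.2 to 85.1 CPM in the male WT libraries S7 to S9, and 51.4 and 56.7 CPM in WT1 and WT2. Among male KO libraries it was 66.2 CPM in S10, 68.3 CPM in S11 and 60.2 CPM in S12, and 49.2 and 57.8 CPM in TKO5 and TKO6. In female WT libraries S1, S2 and S3 it was 87.8, 111 and 73.7 CPM. The 7 female KO libraries ran from 46.3 CPM (TKO2) over a median of 55.8 CPM to 113 CPM (S6).

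Within every group that held both series, the S libraries were the high ones for C1qb. All 12 S libraries (60.2 to 113 CPM) lay above all 8 WT/TKO libraries (46.3 to 57.8 CPM), a ratio of means of 1.59. Of the 10 genes, C1qb alone showed this separation, and 0.665% of the 15187 genes that reached 10 counts in 3 or more libraries lay wholly above in the same way. Among the KO libraries alone, 6 against 6, C1qb was again the 1 gene of the 10 that lay wholly above, beside 2.69% of all genes. C1qa had 86.8 ± 21 CPM (SD, n = 12) in S libraries and 54.7 ± 5.18 CPM (n = 8) in WT/TKO libraries. C1qc had 61.4 ± 12.2 and 38.8 ± 5.56 CPM. For C1qa the series met between S10, at 60.6 CPM, and TKO1, at 61.9 CPM.

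**Figure D1:**
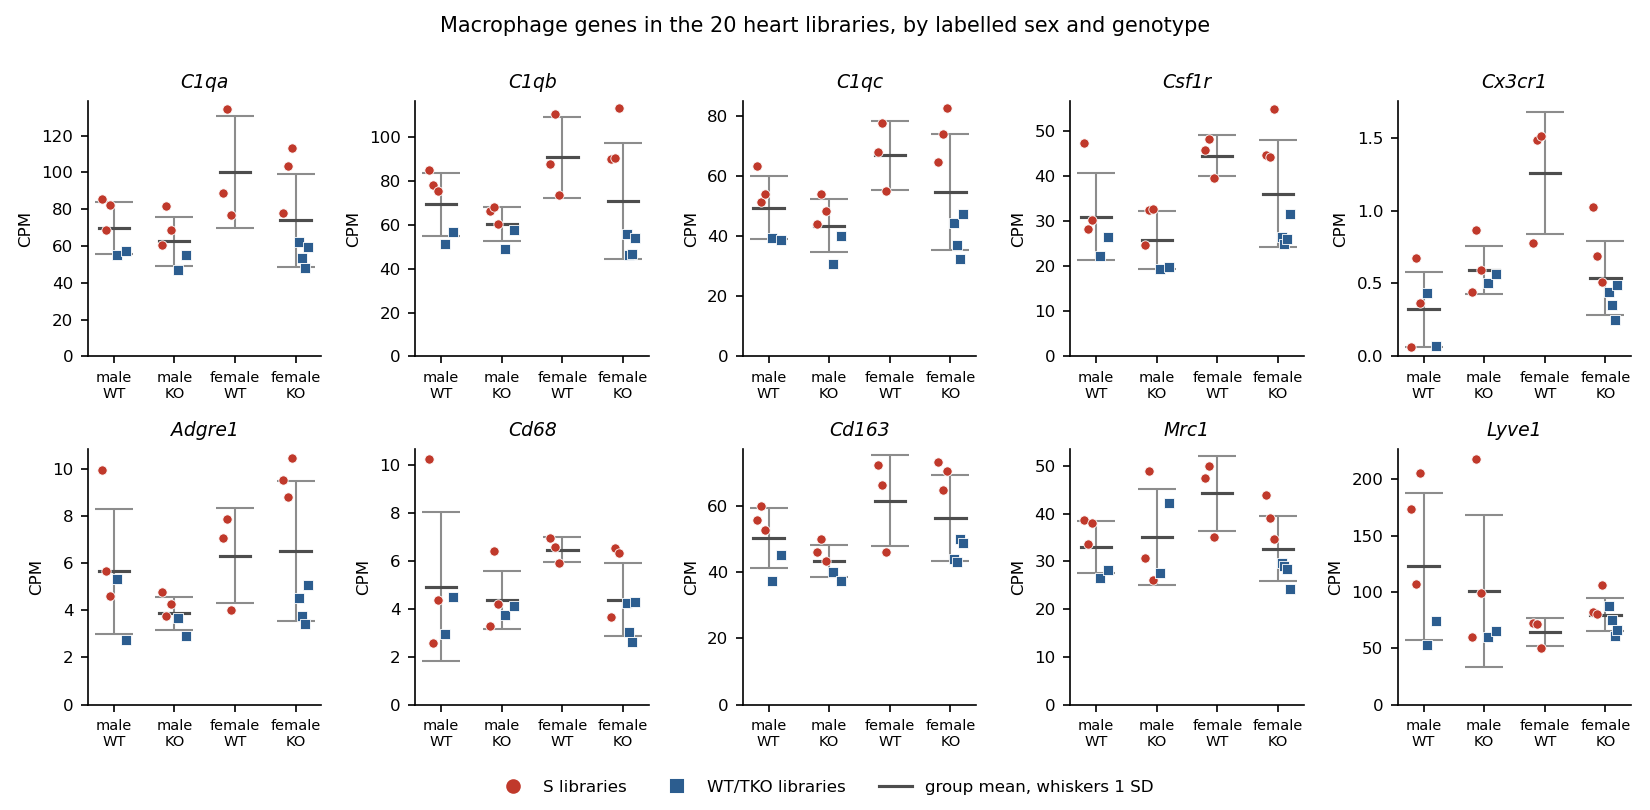
Level of each of the 10 macrophage genes in CPM (vertical axes, from 0) in the 20 libraries, by labelled sex and genotype. Red circles are S libraries, blue squares WT/TKO libraries, dark bars group means and whiskers 1 SD; C1qb is the panel in which every red circle lies above every blue square, and Lyve1 the one with 3 high libraries of male hearts between 174 and 218 CPM.

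The subunits kept close to 1 ratio. In FPKM, C1qa over C1qb was 1.09 ± 0.11 (SD, n = 20), from 0.91 in S4 to 1.27 in S2, a coefficient of variation of 9.68%. C1qc over C1qb was 0.42 ± 0.04, with a coefficient of 8.59%, and its medians were 0.42 in S libraries and 0.41 in WT/TKO libraries. The ratio to C1qb varied more for the receptors, with coefficients of 15.1% for Csf1r, 15.3% for Cd163, 19.7% for Mrc1 and 27.9% for Cd68. It was 24.6% for Adgre1, 48.2% for Lyve1 and 51.2% for Cx3cr1, the last at 1 to 23 counts per library.

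Csf1r encodes the receptor for CSF1 and IL-34, on which macrophage survival depends. Its levels were 47.4, 28.3 and 30.2 CPM in the male WT libraries S7, S8 and S9, and 22.2 and 26.5 CPM in WT1 and WT2. Male KO libraries S10, S11 and S12 had 24.7, 32.4 and 32.6 CPM, and TKO5 and TKO6 had 19.4 and 19.8 CPM, the lowest of all 20. Female WT libraries had 45.7, 48.2 and 39.5 CPM in S1, S2 and S3, and female KO libraries ran from 24.8 CPM (TKO2) over a median of 31.5 CPM to 54.9 CPM (S6). Again the S libraries were the upper ones of each group, although S8, S9 and S10 fell below the highest WT/TKO library, TKO4 at 31.5 CPM. Exons of Csf1r overlap the gene Hmgxb3 in GENCODE, and the length behind its FPKM was 4885 bases against 5774 exon bases, and without a stated strand setting reads in the overlap cannot be told apart. Cx3cr1, the receptor for fractalkine, had 1.48 and 1.51 CPM in S2 and S3, 0.78 CPM in S1 and at most 1.02 CPM elsewhere. S7 and WT2 had 1 count each, against 23 and 21 in S2 and S3, and small differences between libraries were not detectable at this depth. The exons of Cx3cr1 overlap Gm33858.

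Adgre1 encodes F4/80, the surface receptor by which mouse macrophages are usually identified. It was highest in S6 (10.5 CPM), S7 (9.93 CPM), S4 (9.52 CPM) and S5 (8.79 CPM) and lowest in WT2 (2.74 CPM) and TKO6 (2.90 CPM). All 3 S libraries of female KO hearts exceeded all 4 TKO libraries of that group, at 3.43 to 5.07 CPM. Cd68, a protein of the lysosome and endosome membrane, ran from 2.58 CPM in S8 to 6.95 CPM in S1, with S7 alone above that at 10.3 CPM. Counts of Cd68 were 42 to 152 per library and those of Adgre1 36 to 165, the fewest of the 10 genes after Cx3cr1.

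Cd163 encodes the scavenger receptor for haemoglobin bound to haptoglobin. It had 58.6 ± 11 CPM (SD, n = 12) in S libraries and 43.3 ± 4.76 CPM (n = 8) in WT/TKO libraries, with the highest level in S4 at 73.3 CPM and the lowest in TKO6 at 37.5 CPM. Mrc1 encodes the mannose receptor CD206. Its levels of 38.8 ± 7.48 and 29.5 ± 5.42 CPM overlapped broadly, since TKO6, at 42.2 CPM, exceeded 8 of the 12 S libraries and S12, at 26.0 CPM, lay below 7 of the 8 WT/TKO libraries.

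Lyve1 encodes a hyaluronan receptor that is carried by resident macrophages along vessels and by lymphatic endothelium. Over all 20 libraries its levels followed those of the other genes least closely after Cx3cr1. In male WT hearts it had 174 CPM in S7, 107 CPM in S8 and 206 CPM in S9, and 52.6 and 74.1 CPM in WT1 and WT2. In male KO hearts it had 60.04 CPM in S10, 218 CPM in S11 and 98.8 CPM in S12, and 60.4 and 65.7 CPM in TKO5 and TKO6. Female WT hearts had 72.4, 71.3 and 50.2 CPM, and female KO hearts ran from 61.0 CPM (TKO3) over a median of 80.5 CPM to 106 CPM (S6). S7, S9 and S11 were thus the 3 high libraries, at 174 CPM and above, and the other 17 lay at 107 CPM or below.

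The same 3 libraries held the most atrial transcript. The summed level of Nppa, Myl7, Myl4, Sln and Bmp10, genes of atrial myocytes, was 7008 CPM in S7, 5889 CPM in S9 and 7201 CPM in S11, next 2059 CPM in S12 and at most 17.9 CPM in the 8 WT/TKO libraries. Across 20 libraries, which share scaling and sequencing, Lyve1 correlated with this sum at r = 0.78 and Spearman's rho = 0.51. For the 8 WT/TKO libraries alone r was 0.44, and for Cd163 over all 20 it was 0.12. The 6 genes of lymphatic endothelium summed to 91.8, 80.3 and 80.1 CPM in S7, S9 and S11 and to 57.2 to 96.5 CPM over all libraries, and Lyve1 correlated with them at r = 0.38. The part of tissue sampling in the level of Lyve1 was not tested.

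**Figure D2:**
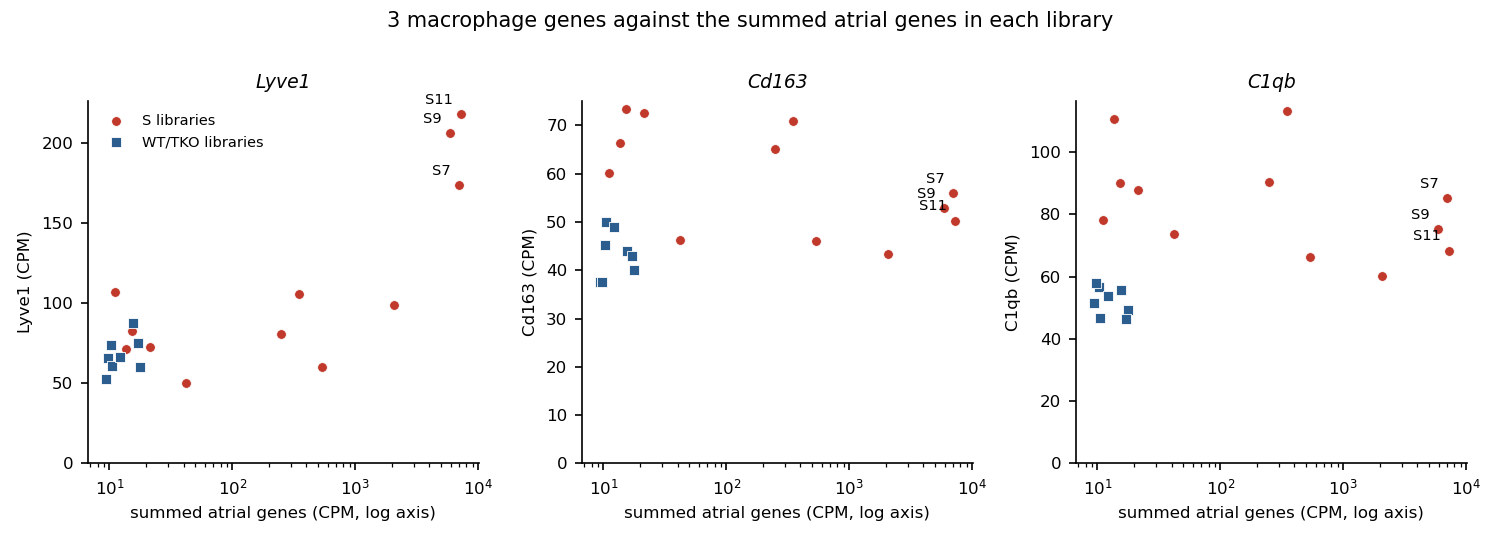
Levels of Lyve1, Cd163 and C1qb in CPM (vertical axes, from 0) against the summed level of 5 atrial genes in CPM (horizontal log axis), 1 point per library. Lyve1 lies at 174 CPM or above in S7, S9 and S11, where the atrial sum is 5889 CPM or more, while Cd163 and C1qb in these libraries lie inside the range of the other S libraries.

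The first comparison the design implies is KO against WT within each labelled sex. Library series entered the fit as a covariate, and p-values measure the spread between libraries. Among male hearts, 8 of the 9 macrophage genes fitted had a fitted level below WT in KO and Mrc1 had one above it, and the groups overlapped for every gene. The log2 fold change was -0.17 (SE 0.11) for C1qa, -0.19 (0.10) for C1qb, -0.19 (0.11) for C1qc, -0.28 (0.15) for Csf1r, -0.53 (0.26) for Adgre1 and -0.22 (0.10) for Cd163. For Lyve1 it was -0.24 (0.30), for Mrc1 0.09 (0.18), and for Cd68 -0.16 (0.34), which became 0.26 without S7. Over all genes, 0 of 14481 (0%) passed a Benjamini-Hochberg adjusted p of 0.05 in the quasi-likelihood test of edgeR, with 688 (4.75%) at an unadjusted p under 0.05, and DESeq2 called 13 (0.0898%). Of all genes, 0.369% lay wholly above and 0.23% wholly below in KO, and 0 of the 10 did either. Cx3cr1 was too low to be fitted here.

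Within the S libraries alone, C1qb was 64.9 ± 4.2 CPM (SD, n = 3) in male KO and 79.4 ± 5.09 CPM (n = 3) in male WT, and Cd163 was 46.5 ± 3.48 and 56.3 ± 3.73 CPM. For these 2 of the 10 genes every KO library lay below every WT library, as it did for 3.97% of all genes. Between TKO5 and TKO6 and WT1 and WT2, C1qb was 53.5 ± 6.13 and 54.0 ± 3.77 CPM (SD, n = 2 each), and the ranges overlapped. There C1qa and Csf1r lay wholly below in KO, beside 12.1% of all genes, and Cx3cr1 wholly above, beside 14.2%. Cx3cr1 had only 6 and 7 counts in TKO5 and TKO6 and 7 and 1 in WT1 and WT2. TKO5 thus exceeded WT1 in CPM but not in counts.

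Among female hearts, the fitted KO level was above WT for 6 genes and below it for 4. Adgre1 had a log2 fold change of 0.60 (SE 0.25), Lyve1 0.47 (0.18), Cd163 0.17 (0.16), C1qc 0.14 (0.17), C1qb 0.11 (0.16) and Csf1r 0.11 (0.14). C1qa had -0.03 (0.20), Mrc1 -0.17 (0.16), Cd68 -0.24 (0.26) and Cx3cr1 -0.74 (0.43). Over all genes, 8 of 14511 (0.0551%) passed the same test, 2597 (17.9%) reached an unadjusted p under 0.05, and DESeq2 called 383 (2.64%). None of the 10 lay wholly above or below in KO, beside 2.54% and 2.28% of all genes. All 3 female WT libraries were S libraries, so S4 to S6 were their only KO partners within a series, and against them Adgre1 and Lyve1 lay wholly above, beside 8.55% of all genes. Without the series covariate C1qa had -0.44, C1qb -0.36, C1qc -0.29, Csf1r -0.30 and Cd163 -0.13 on the log2 scale, the last 4 with the direction turned. Calls over all genes also depended on single libraries, from 1 without S6 to 2409 without S1.

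In the S libraries of both labelled sexes, the KO and WT hearts also differed in their sex-linked genes, and the 2 differences cannot be told apart there. The difference of the genotype effect between labelled sexes was fitted as an interaction. Over all genes it passed in edgeR for 0 of 15187 (0%), with 2375 (15.6%) at an unadjusted p under 0.05, and DESeq2 called 20 (0.132%). Values of the interaction, male minus female, were -0.92 (SE 0.38) for Adgre1, -1.02 (0.44) for Lyve1 and 1.75 (0.68) for Cx3cr1, and lay between -0.30 and 0.37 for the other 7.

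**Figure D3:**
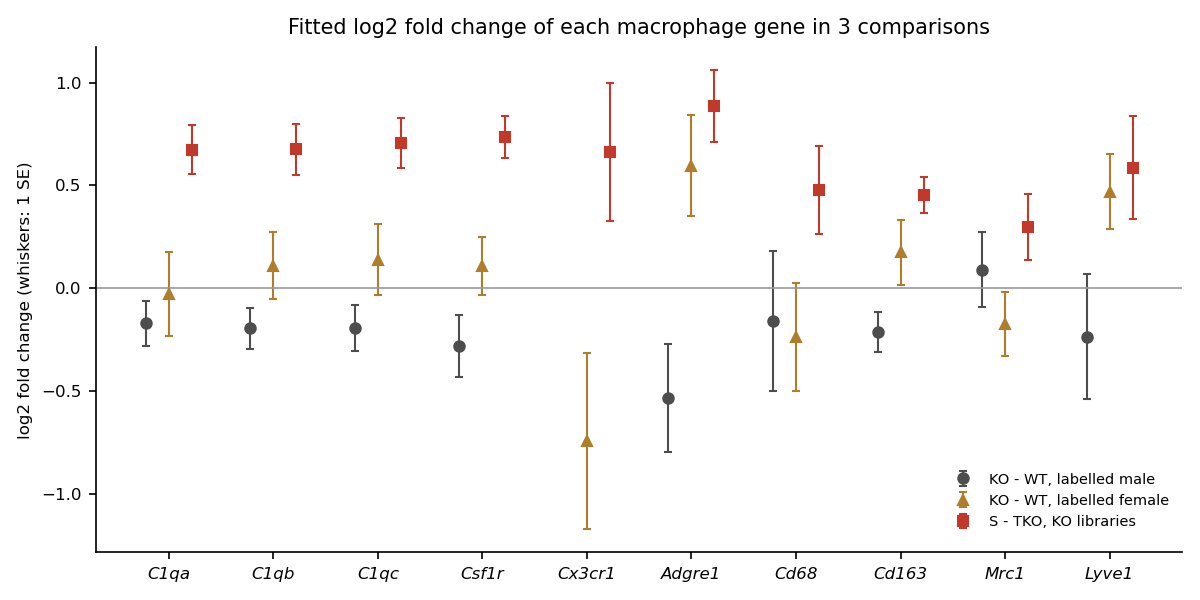
Fitted log2 fold change (vertical axis) of each macrophage gene between KO and WT hearts of each labelled sex and between S and TKO libraries of KO hearts; whiskers are 1 SE. The 10 series differences lie between 0.30 and 0.89, and the KO against WT values lie on both sides of 0; Cx3cr1 was not tested in male hearts.

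The library series were compared within 1 labelled genotype, as 6 S against 6 TKO libraries of KO hearts, with labelled sex as a covariate. The genotype of S4 to S6, whose sex-linked genes went against their label, rests on the labels, since Tecrl did not separate the genotypes. All 6 S libraries here expressed Y-linked genes, while 4 of the 6 TKO libraries (TKO1 to TKO4) expressed Xist, so the covariate does not separate series from the sex that the libraries express. All 10 macrophage genes were fitted higher in the S libraries. The log2 fold change was 0.89 (SE 0.17) for Adgre1, 0.74 (0.10) for Csf1r, 0.70 (0.12) for C1qc, 0.68 (0.12) for C1qb and 0.67 (0.12) for C1qa. It was 0.66 (0.33) for Cx3cr1, 0.59 (0.25) for Lyve1, 0.48 (0.21) for Cd68, 0.45 (0.09) for Cd163 and 0.30 (0.16) for Mrc1. Over all genes, 11.2% of 14540 passed edgeR's test, 784 of them higher (5.39%) and 838 lower (5.76%). All calls numbered 1622, against 752 without S6 and 919 without S5.

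Each pair of groups that held both series had higher mean levels of all 10 genes in the S libraries, to unequal degrees. In female KO hearts, where S4 to S6 stand against TKO1 to TKO4, C1qb was 97.9 ± 13.2 CPM (SD, n = 3) and 50.6 ± 4.87 CPM (n = 4), a ratio of 1.93, and Adgre1 had a ratio of 2.29. In this pair S4 to S6 had Y-linked genes at 181 to 203 CPM and TKO1 to TKO4 had Xist at 298 to 456 CPM, so library series and expressed sex cannot be told apart. There 8 of the 10 genes lay wholly above in the S libraries, all but Cd68 and Lyve1, as did 11.1% of all genes. In male KO hearts, S10 to S12 against TKO5 and TKO6, the 1 pair in which both series expressed Y-linked genes, C1qb had a ratio of 1.21 and Csf1r of 1.53, Mrc1 of 1.01, and 6 of the 10 lay wholly above, beside 17.5% of all genes. In male WT hearts, S7 to S9 (with Xist) against WT1 and WT2 (with Y-linked genes), C1qb had a ratio of 1.47 and Lyve1 of 2.56, and 7 of the 10 lay wholly above, beside 15.9%. Without S4 to S9, the libraries whose sex-linked genes went against their label, the log2 fold changes of KO hearts were 0.47 for C1qa, 0.28 for C1qb, 0.47 for C1qc, 0.62 for Csf1r, 0.38 for Adgre1, 0.27 for Cd163 and 0.01 for Mrc1, and that of Lyve1 was 1.0. Cx3cr1 was too low to be fitted there, and the 9 genes fitted, Cd68 among them, were all above 0 with a median of 0.38. Labelled and expressed sex agreed in all libraries of that fit, and 71 of 14274 genes in all passed (0.497%).

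Other genes of macrophages, a list drawn up with earlier results of these data known, were also higher in the S libraries. Of 25 such genes, 14 rose in S against TKO libraries of KO hearts, beside 5.39% of all genes, and 0 fell, beside 5.76%. At an unadjusted p under 0.05, 19 were higher, beside 27.7% of all genes in either direction. DESeq2 called 15 higher, beside 15.1% in either direction. The median log2 fold change was 0.80 against -0.01 over all genes. Lyz2, the macrophage lysozyme, had 221 ± 55.9 CPM (SD, n = 6) in S and 122 ± 12.4 CPM (n = 6) in TKO libraries, a log2 fold change of 0.88 (SE 0.11, adjusted p = 0.000645, edgeR). Maf, a transcription factor of resident macrophages, rose by 0.74 (0.10, adjusted p = 0.00103), Cybb, the catalytic subunit of the phagocyte oxidase, by 1.04 (0.17, adjusted p = 0.00226) and Fcer1g, an adaptor of Fc receptors, by 0.91 (0.15, adjusted p = 0.00231), all on the log2 scale by edgeR. Spi1, the gene of PU.1, rose by 0.81 (0.15, adjusted p = 0.00539, edgeR). Mertk, Irf8, Cd14 and Lgmn did not pass, with log2 fold changes of 0.19, -0.04, -0.08 and 0.14. Without S4 to S9 only Maf of 24 passed, beside 0.231% of all genes called higher in that fit, and the median was 0.36.

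Of 15 genes tested that mark the resident subset, 3 rose, as did 5.39% of all genes: Ccl8, Clec10a and Timd4, by 3.39 (SE 0.55), 1.50 (0.25) and 1.06 (0.29) on the log2 scale. Folr2 had 0.46 (0.47) and F13a1 0.06 (0.16). MHC class II and Ccr2-side genes had a median of 1.24, and 5 of 10 rose beside the same 5.39% of all genes. Among them were Cd74, the invariant chain, with 155 ± 85.1 CPM in S and 59.1 ± 12.9 CPM in TKO libraries (SD, n = 6 each), and Ccr2 with 1.90 ± 0.78 and 0.76 ± 0.35 CPM. Without S6, 3 of 10 rose (Cd52, Cd74 and H2-DMb1) and Ccr2 did not pass, beside 5.21% of all genes in either direction. Of 6 monocyte genes 3 rose, again beside 5.39% of all genes, Hp by 2.91 (0.35), Plac8 by 2.40 (0.31) and Ly6c2 by 1.11 (0.34), and Ly6c2 was not called by DESeq2. Hp encodes haptoglobin, which liver and fat also make, and reached 133 CPM in S7. Without S4 to S9, where 0.231% of all genes were called higher, 0 genes of the resident subset and class II lists passed and Hp alone of the monocyte list did. The median was then 0.44 for the resident subset, 0.26 for the class II list and 1.65 for 4 monocyte genes, against 0.35, 1.24 and 1.0 with all libraries.

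Of 16 complement genes other than C1q, 5 rose beside 5.39% of all genes. At an unadjusted p under 0.05, 9 were higher (27.7% of all genes in either direction), and DESeq2 called 8 higher (15.1% in either direction). The 5 were C4b, with 44.4 ± 21.7 CPM in S and 10.8 ± 3.77 CPM in TKO libraries (SD, n = 6 each), Cfp, Serping1, C7 and C1ra. Without S6, 3 of 16 rose (C4b, Cfp and Serping1), beside 5.21% of all genes in either direction. C3 had a log2 fold change of 0.48 (SE 0.36) and did not pass. Of 10 inflammatory mediators 1 rose, Tgfb1 by 0.43 (0.12), beside 5.39% of all genes, and Il1b had 0.11 (0.51). At an unadjusted p under 0.05 there were 5, beside 27.7% of all genes in either direction. DESeq2 called 3 (Tgfb1, Spp1 and Gpnmb), beside 15.1% in either direction. The ligands of Csf1r, Csf1 and Il34, had 0.41 (0.18) and 0.11 (0.18), and 0 of 5 ligand and growth factor genes passed by edgeR (11.2% of all genes), 3 at an unadjusted p under 0.05 (27.7%) and 2 by DESeq2 (15.1%). Without S4 to S9, C4b alone of the complement list passed, beside the 0.231% of all genes, and the list's median was 0.47 against 0.49 with all libraries.

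**Figure D4:**
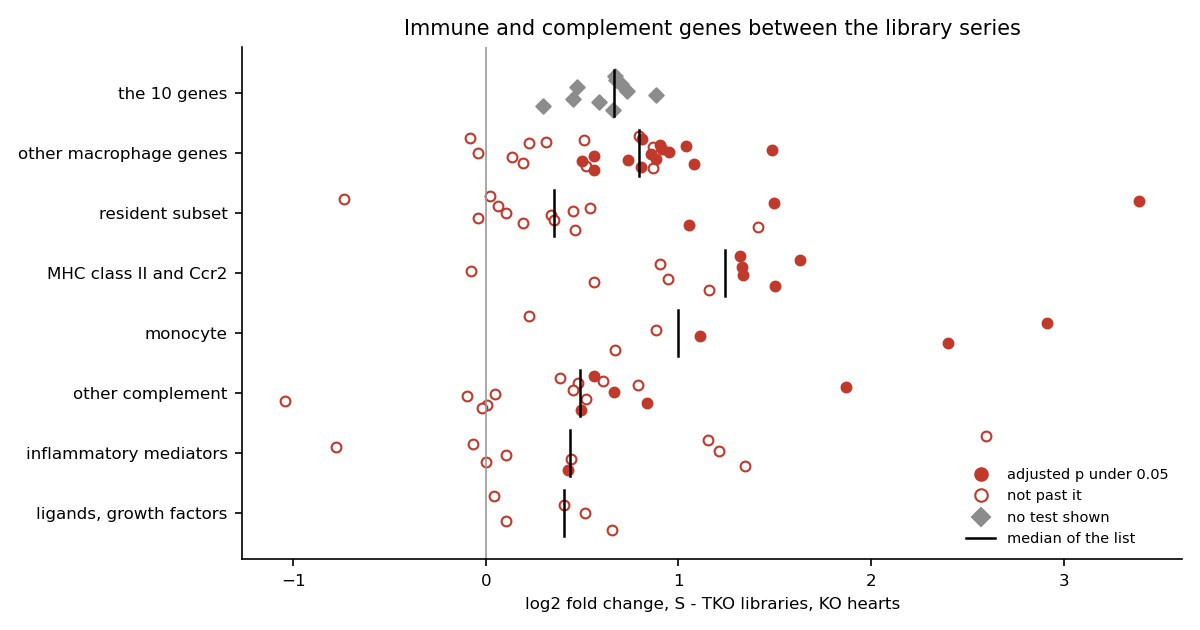
Log2 fold change between S and TKO libraries of KO hearts (horizontal axis), 1 point per gene, for the 10 macrophage genes (grey diamonds, no test shown) and 7 other lists; filled circles passed an adjusted p of 0.05, open circles did not, and black bars are list medians. Medians lie between 0.35 and 1.24, with 14 filled circles among the 25 other macrophage genes.

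Some markers of other cells differed between the series. In S libraries of KO hearts, by edgeR, 3 of 4 atrial genes (Myl7, Myl4 and Sln), 4 of 4 adipocyte genes and 2 of 5 red cell genes (Hba-a2 and Hbb-bs) rose. So did 2 of 2 killer cell genes tested (Gzma and Nkg7), 1 of 2 T-cell genes (Trac), the 1 B-cell gene tested (Ighm) and 1 of 6 mural genes (Kcnj8). Over all genes 5.39% rose. Ryr2 of myocytes, Abcc9 of mural cells and Xist fell, beside 5.76% of all genes. In the neutrophil, dendritic, mast, lymphatic and mesothelial lists 0 of 6, 3, 4, 6 and 4 genes tested passed, beside 11.2% of all genes. Of the cardiomyocyte, endothelial and fibroblast lists, 1 of 6, 0 of 6 and 0 of 6 genes passed by edgeR, beside 11.2% of all genes, and 2 of 6 in each at an unadjusted p under 0.05, beside 27.7%. DESeq2 called 1, 1 and 0, beside 15.1% of all genes. Their part in the difference of the macrophage genes was not tested. Without S10 to S12, the 3 KO libraries with the most atrial transcript, the log2 fold change was 0.96 for C1qb, 0.82 for C1qa, 0.88 for C1qc, 0.82 for Csf1r and 0.31 for Lyve1. In that fit 15 of 25 other macrophage genes rose, beside 3.85% of all genes. Atrial genes were still higher there, with a median of 5.89 and 3 of 4 called. With labelled sex as covariate, the series difference then rested on S4 to S6, with Y-linked genes, against TKO1 to TKO4, with Xist. Series and expressed sex cannot be told apart in it.

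In the KO against WT comparisons, 0 genes of the other macrophage, resident subset, class II, monocyte, inflammatory, ligand and complement lists passed in either labelled sex by edgeR, beside 0% of all genes in male and 0.0551% in female hearts. At an unadjusted p under 0.05, 3 of 24 other macrophage genes passed in male hearts, beside 4.75% of all genes, and 2 of 25 in female hearts, beside 17.9% of all genes. Of these lists the class II list had the largest medians, -0.73 in male hearts and 0.40 in female hearts. In male hearts all 10 genes lay below 0, 6 of them at an unadjusted p under 0.05, beside 4.75% of all genes in either direction. In female hearts 9 of 10 lay above 0, and 0 reached an unadjusted p under 0.05. In the resident subset, monocyte and complement lists 1 of 14, 1 of 5 and 3 of 15 genes reached an unadjusted p under 0.05 in male hearts, against the same 4.75%, and 2 of 15, 1 of 6 and 1 of 15 in female hearts, against the 17.9% of all genes, and 0 inflammatory and ligand genes did. Over all these lists DESeq2 called 0 genes in male hearts, beside 0.0898% of all genes, and 2 in female hearts, Hp and Masp1, beside 2.64% of all genes. Markers of other cells also differed in male hearts. The 1 B-cell gene tested had -4.52, and 3 T-cell and 4 adipocyte genes had medians of -0.39 and -4.01. Neutrophil, dendritic, mural, endothelial and lymphatic lists had medians above 0. S7, the library high in B-cell and adipocyte genes, belongs to the male WT group. Its part in the class II values was not tested.

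The macrophage genes varied together across the 20 libraries. The median Pearson correlation of log2 CPM over the 45 pairs of genes was 0.60, and 44 pairs were above 0. The C1q subunits correlated at 0.94 to 0.96, Csf1r with C1qc at 0.93 and with Cd163 at 0.86, and Adgre1 with C1qc at 0.83. Mrc1 was closest to C1qb at 0.71 and Cd68 to C1qa at 0.72. Lyve1 reached at most 0.40, with Cd68, and was at -0.19 with Cx3cr1. These points share library depth and series, and 2 levels of a series by themselves raise r. With each series centred on its own mean, the median was 0.38 and the C1q pairs kept 0.84 to 0.90, while Lyve1 lay between -0.10 and 0.21 with the others apart from -0.49 with Cx3cr1. With each group centred within each series the median was again 0.38 and the C1q pairs were at 0.81 to 0.86, but Lyve1 was at 0.62 with C1qa, 0.62 with Cd68, 0.63 with Mrc1, 0.52 with C1qc and 0.51 with Csf1r, and at -0.07 with Adgre1. Within the 8 WT/TKO libraries alone Lyve1 was at 0.58 with C1qa. Cd163 went from 0.78 to 0.85 with the C1q subunits over 20 libraries to 0.21 to 0.48 within group and series and -0.23 to 0.10 in the WT/TKO libraries. Within the 12 S libraries the median was 0.45 and within the 8 WT/TKO libraries 0.16.

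**Figure D5:**
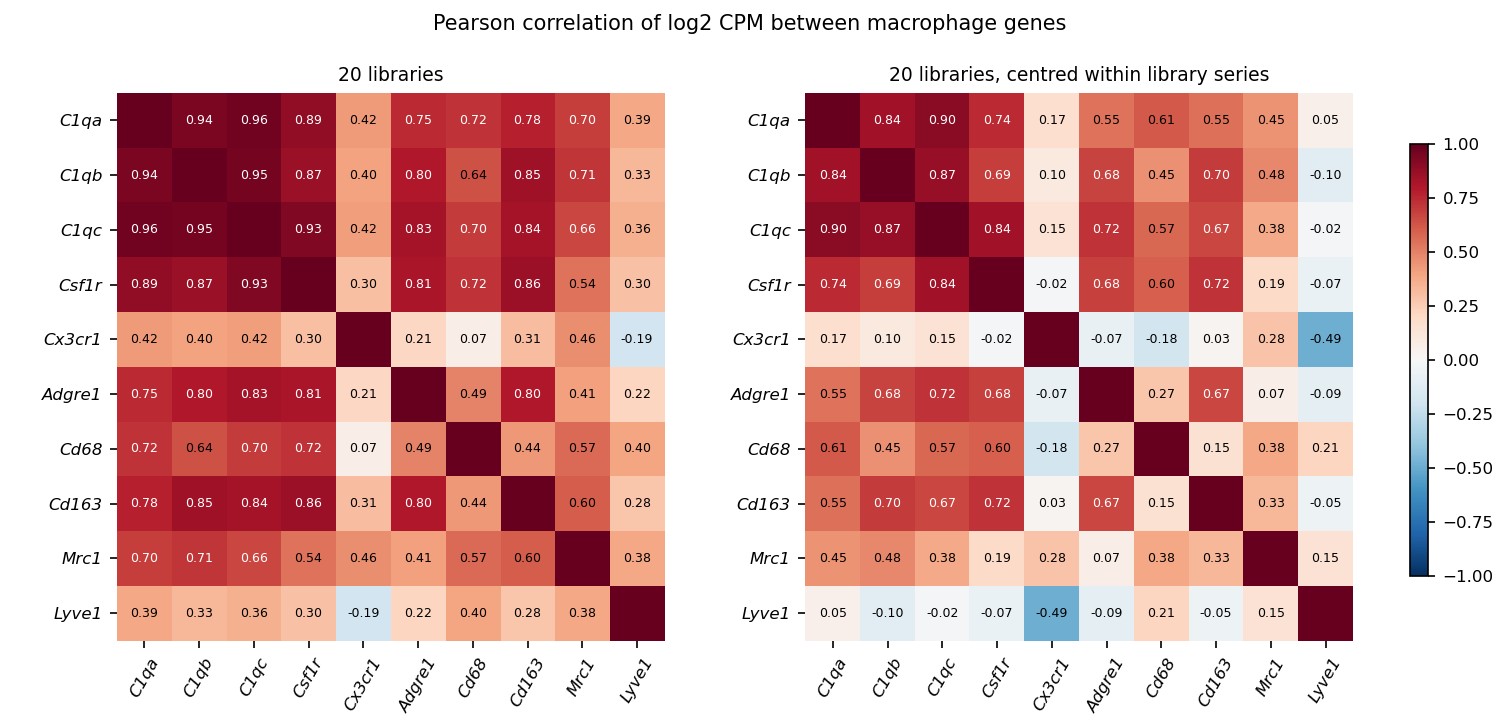
Pearson correlation of log2 CPM between the macrophage genes over 20 libraries, before (left) and after (right) each library series was centred on its own mean; colour runs from -1 (blue) to 1 (red). The C1q subunits and Csf1r form a block of 0.87 to 0.96 on the left and 0.69 to 0.90 on the right, and Lyve1 lies at or below 0.40 with every gene on the left and between -0.49 and 0.21 on the right.

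Of the variance of log2 CPM, library series took 67.8% for C1qb, 62.8% for C1qc, 59.9% for C1qa and 52.8% for Csf1r. It took 45.8% in Cd163, 36.9% in Adgre1, 36.5% in Mrc1, 25.1% in Cd68, 21.6% in Lyve1 and 18.1% in Cx3cr1. Genotype taken alone took 0.35% (Cx3cr1) to 9.05% (C1qb), and labelled sex 1.6% (Mrc1) to 24.9% (Csf1r). The 4 groups took 17.4% (Lyve1) to 51.1% (Cx3cr1), and for Cx3cr1 this exceeded the share of series. Since all but 2 of the 8 WT/TKO libraries are KO, the shares of series and genotype are not separate quantities.

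Outside the 10, the genes whose log2 CPM was most like the mean of the 10 standardised genes over 20 libraries were led by Bst2, the interferon-inducible tetherin, at r = 0.93, with 58.3 CPM in S and 24.4 CPM in WT/TKO libraries on average. It was followed by Tyrobp, an adaptor of myeloid receptors (0.93), Cd52 (0.92), Laptm5 (0.91), Fcer1g (0.90), Lgals3bp (0.90), Ifi27 (0.90), Ly86 (0.89), Gdf15 (0.89), Lyz2 (0.89), Gmfg, Pld4, H2-T23, Pla2g7 and Psmb8 (0.88 each), out of 13074 genes with a mean of at least 1 CPM. After centring within series, 8 of these 15 were still among the 15 nearest, Tyrobp first at 0.86 and Bst2 at 0.85. Lyve1 taken alone, a choice made after its values were seen, was nearest to Npr3 (r = 0.92), Anxa2 (0.92), Ptgis (0.91), Ckap4 (0.91) and Col23a1 (0.91), and these had r of 0.23 to 0.49 with the mean of the 10. Npr3 encodes the clearance receptor for natriuretic peptides.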

How the data were processed

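Poly(A) RNA of mouse hearts was sequenced as paired reads in 20 libraries. The authors deposited raw read counts and FPKM per gene; their processing notes name HISAT2, HTSeq 0.6.1p2, DESeq2 1.26.0 and GRCm38, and the strand setting is not given in the sources used here. The deposited FPKM equals the count over gene length and library total.

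Groups came from the labels. The methods describe 3 mice in each of 4 groups, 12 in all, and the labels list 20 libraries without naming mice. Whether each library is a separate mouse is therefore not given, and p-values measure the spread between libraries, which may be technical. The 44 pairs of libraries within groups all differed beyond counting noise. Counts were fitted with edgeR 4.0.16 (R 4.3.3; TMM, quasi-likelihood) over genes reaching 10 counts in 3 or more of the fitted libraries, called at a Benjamini-Hochberg adjusted p under 0.05, with library series or labelled sex as covariate. CPM used TMM library sizes; log2 CPM used a prior count of 2. Alternatives were DESeq2 1.42.0, limma 3.58.1 on log2(FPKM + 1), other filters and left-out libraries. The fits were tested on simulated data. The study called genes with DESeq2, by a p under 0.05 that is not said to be adjusted, together with a minimum fold change.

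The 10 genes and the other lists were chosen with earlier results of these data known. Genes named are the 10, up to 4 genes called and the 2 most abundant of each list, the 15 genes most like the 10, and a few others of a list named after their values were seen. GENCODE M21 matched 29328 of 29339 genes; promoters and proteins of the other genes were not used here.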

Additional observations from a re-analysis of the deposited data

Results flagged for a closer look

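A library was looked at again where it lay far from the others of its group by Dixon's criterion, in 45 groups of 5 or 7 libraries (the 10 genes and 5 summed lists). The 3 female WT libraries were too few and were not looked at. Chance alone marks about 1 in 20 such groups, and 3 were marked. The criterion served only to choose libraries to describe and is not a test of the 10 genes. Cd68 had 10.3 CPM in S7 and 2.58 to 4.49 CPM in the other 4 male WT libraries. The summed monocyte genes had 150.4 CPM in S7 and 2.90 to 15.2 CPM in those 4. Lyve1 had 218 CPM in S11 and 60.04 to 98.8 CPM in the other 4 male KO libraries.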

How the results depend on the processing

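The 204 alternative values of the series difference of the 10 genes had 0 changes of sign. There were 5 such changes among 171 values in male hearts, 11 among 179 in female hearts and 13 among 259 for the interaction. Genes called in male hearts went from 0 to 13 (DESeq2), 59 (no filter on low counts), 5 (S libraries alone) and 0 to 1 with 1 library left out. In female hearts they went from 8 to 383 (DESeq2), 0 (at least 10 counts in every library), 1110 (no filter), 2 (no series covariate), 2 (a single fit of 20 libraries) and 1 (without S6) to 2409 (without S1), and other macrophage genes called from 0 to 1 (no filter) and 0 to 1 (1 without S1). Interaction calls went from 0 to 20 (DESeq2), 129 (no filter) and 0 to 1127 (without S1). Series calls went from 1622 to 2507 (no filter), 71 (without S4 to S9) and 752 (without S6; 919 without S5) to 1740 (without TKO4), and other macrophage genes called from 14 to 1 (without S4 to S9) and 10 (without S6) to 15. The median correlation went from 0.60 to 0.66 (FPKM), 0.38 (centred within series), 0.38 (within group and series), 0.69 (without S4 to S9) and 0.54 (without S1), 0.56 (without S2), 0.56 (without WT1), 0.65 (without S11) and 0.68 (without TKO6) with 1 library left out. The cause of these shifts was not tested, apart from the number of genes tested without a filter. In female hearts the fit without S4 to S9 could not be made, since genotype and series then coincide. Leaving out S10 to S12 and likeness to Lyve1 were chosen after seeing the data. No paired analysis was possible because the numbers in the library names run through each series and name no shared litter, day or animal. Depth limits Cx3cr1 most, at 1 to 23 counts.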
